A study of Homo sapiens with 12 samples.

Results

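The RNAs described here are the small nuclear RNAs (snRNAs), the small nucleolar RNAs (snoRNAs), the small Cajal body RNAs (scaRNAs), 7SK, the RNA components of RNase MRP (RMRP) and RNase P (RPPH1), and the 7SL RNAs of the signal recognition particle (RN7SL). They were taken by annotated type or by symbol, and the members were chosen by their mean raw count over the 12 libraries, which had to be 20 or more. This left 155 records, at 147 distinct loci, of 3593 records of these kinds and of 58051 gene records in all. The limit rests on the same counts as the comparisons, so a record can be among the 155 because it was high in one group. SNORA65 (20.2 counts, 9 to 40 by library) and SNORD118 (20.1 counts, 4 to 39) were just inside the limit, and RN7SL328P (19.8 counts, 10 to 33) and RN7SL657P (19.8 counts, 7 to 46) were just outside it. By class there were 56 box C/D snoRNAs, 47 box H/ACA snoRNAs, 10 scaRNAs, 17 7SL records, 4 of 7SK, 2 each of RMRP, RPPH1, U4 and U6, 8 of U1, 1 each of U2 and U5, and 3 of the minor spliceosome.

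The cells were MDA-MB-231, a triple-negative breast cancer line. Each of the 4 groups had 3 libraries and received one or both of the siRNA pools or a control pool. siControl received a non-targeting pool, siNELFA a pool against NELFA, a subunit of the negative elongation factor NELF, siYAP a pool against YAP1, the Hippo pathway co-activator, and siNELFA+siYAP both pools. All groups shared the line, the transfection method and the RNA preparation. The labels and the study's methods give the siRNA concentration only as a range, the same for every library. The dose used in each group is therefore not known. Whether siNELFA+siYAP received more siRNA in total than the other groups is not stated, so an effect of dose cannot be told apart there. The labels give harvests at 48 h and 72 h after transfection without saying which library had which, and the study's methods give 72 h. Ribosomal RNA was depleted and stranded libraries were sequenced. The design asks what loss of NELFA, alone or with YAP1, does to RNA levels. The study's methods call the replicates independent, while the labels do not say that they came from separate cultures, so that the p-values measure the spread between these libraries, which may in part be technical.

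NELFA was at 25.3, 27.5 and 27.9 CPM (counts scaled to library size with TMM factors) in the siControl libraries, 9.96, 9.06 and 7.11 with siNELFA, 33.8, 25.3 and 22.2 with siYAP, and 8.20, 6.73 and 6.35 with siNELFA+siYAP. YAP1 lay between 247 and 302 CPM in siControl and siNELFA and between 37.7 and 46.2 CPM in siYAP and siNELFA+siYAP. Both targeted genes were low in each library labelled with their siRNA. The line's markers VIM, CD44, EGFR and KRT18 were at 139 CPM or more in every library, ESR1 and PGR did not exceed 0.433 CPM, and of the markers of other cells CD3E was at 0 in every library and PTPRC, CDH5 and DCN stayed at 0.429 CPM or less, while PECAM1 ranged from 1.76 to 8.88 and COL1A1 from 6.28 to 27.2 CPM. ERBB2 ranged from 45.7 to 80.5 CPM. The libraries held 9608145 to 18803104 counts. The replicate 1 libraries of siControl, siNELFA and siYAP stood apart from the others of their groups, and the replicate numbers paired these 3 groups, so values with the replicate number as a block are given where they change a call. The siNELFA+siYAP libraries did not follow this pairing, and their library names carry the number 1 with an index.

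snRNAs pair with the pre-mRNA during splicing. snoRNAs guide chemical changes on ribosomal RNA, methylation for the box C/D class and pseudouridylation for the box H/ACA class, and U3 takes part in cutting the ribosomal RNA precursor. 7SK holds the elongation kinase P-TEFb in an inactive particle with LARP7, MEPCE and HEXIM1, opposite to the release of polymerase that NELF holds in pause. How these RNAs are made differs: U1, U2, U4, U5, U11, U12, U3 and a few others are transcribed by RNA polymerase II (Pol II) from stand-alone genes whose ends are formed by Integrator near a 3′ box, with NELF and DSIF taking part, while 7SK, 7SL, RMRP, RPPH1 and U6-type RNAs are made by RNA polymerase III (Pol III), and most snoRNAs are trimmed out of host introns. The records were grouped in this way after their values had been seen, into 23 records (22 loci) of stand-alone Pol II genes, 10 records (6 loci) of Pol III genes, 19 scattered copies of 7SK, 7SL, U6 and U1, and 103 other snoRNAs and scaRNAs (100 loci). The name stand-alone stands for the class of gene only. In the annotation, 9 of the 23 records lie inside an exon of a longer gene on the same strand and 1 lies in an intron. The other 13 have none around them. The 1 in an intron, the U3 record inside TEX14, was placed here by its symbol. Whether it is transcribed as a gene of its own was not tested. The U1 copy RNU1-103P, also in an intron, was placed with the copies. For the 9, counts cannot be told apart from reads of the longer transcript. RNU11, among the 13, overlaps another gene record on its strand, so its counts may hold reads of that record. In siControl alone, 4 of the 23, the U3 record inside TEX14, RNVU1-15, RNU1-1 and SNORD118, had a mean count below 20 (11.7, 16.0, 14.0 and 13.7), so they are members through the other groups, and counts and medians over the 23 are a description.

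The sequences that follow are those on which the comparison of copies turns, read 5′ to 3′ from GRCh38 at the positions of GENCODE release 44. Of the RNAs below, RNU1-1, at chr1:16514122-16514285 on the minus strand, is the U1 snRNA that base-pairs with the 5′ splice site. RNVU1-14, at chr1:145281116-145281279 on the plus strand, is a variant of it at 15 edits. In both, capitals mark the letters of the Sm site, where the ring of Sm proteins sits.
RNU1-1: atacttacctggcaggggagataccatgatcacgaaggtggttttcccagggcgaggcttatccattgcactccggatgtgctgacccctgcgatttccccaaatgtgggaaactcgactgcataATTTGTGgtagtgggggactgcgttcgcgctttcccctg
RNVU1-14: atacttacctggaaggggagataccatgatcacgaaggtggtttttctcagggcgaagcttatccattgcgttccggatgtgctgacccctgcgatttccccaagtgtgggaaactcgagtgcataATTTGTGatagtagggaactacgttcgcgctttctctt
The letters ATTTNTG, searched on the transcript strand, were held by 17 of 146 located members, or 11.6%. The bases right after RNU1-1, at chr1:16514092-16514121, are shown because they hold the 3′ box letters, in capitals, which begin at base 11 after the end of the record.
downstream of RNU1-1: actttctggaGTTTCAAAAACAGActgtac
Within 100 bases after the end, on the transcript strand, the 3′ box pattern was matched at 2 of 146 loci (1.37%), RNU1-1 and RNU5E-1.

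Of the U3 genes, 5 lie in one cluster on chromosome 17. SNORD3D, at chr17:19112420-19112636 on the minus strand, has a record of the length of U3 itself, 217 bases. The SNORD3B-2 record is longer, 791 bases at chr17:19063346-19064136 on the minus strand, and its first 217 bases, at chr17:19063920-19064136, differ from SNORD3D by 2 edits. The next 100 bases of that record, at chr17:19063820-19063919, are part of the 574 bases that the record holds beyond the U3 sequence. A further record named U3, in an intron of TEX14 at chr17:58631641-58631836 on the minus strand, differs from SNORD3D by 71 edits over its 196 bases. Capitals mark the letters TGATGA and CTGA, those of the C and D boxes that snoRNP proteins bind. The U3 record inside TEX14 holds CTGA without TGATGA, and the bases after U3 in SNORD3B-2 carry no capitals. Each match is a match of letters only, and 45 of 146 located members (30.8%) hold both on the transcript strand.
SNORD3D: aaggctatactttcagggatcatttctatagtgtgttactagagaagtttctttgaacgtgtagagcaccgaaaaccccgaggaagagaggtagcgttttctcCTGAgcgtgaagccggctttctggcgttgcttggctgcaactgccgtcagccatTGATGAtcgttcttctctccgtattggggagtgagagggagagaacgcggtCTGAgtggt
start of SNORD3B-2: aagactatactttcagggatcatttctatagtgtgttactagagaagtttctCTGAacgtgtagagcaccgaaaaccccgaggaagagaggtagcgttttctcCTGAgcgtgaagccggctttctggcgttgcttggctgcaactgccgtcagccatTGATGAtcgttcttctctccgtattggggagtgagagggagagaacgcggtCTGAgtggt
SNORD3B-2, next bases: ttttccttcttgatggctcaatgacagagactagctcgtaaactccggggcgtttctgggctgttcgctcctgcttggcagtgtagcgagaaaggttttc
U3 inside TEX14: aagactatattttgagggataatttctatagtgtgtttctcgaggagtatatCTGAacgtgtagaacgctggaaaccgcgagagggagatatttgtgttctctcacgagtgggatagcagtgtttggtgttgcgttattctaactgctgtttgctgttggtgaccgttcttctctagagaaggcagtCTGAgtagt
Of the intron-type snoRNAs, SNORD27, at chr11:62855012-62855083 on the minus strand inside SNHG1, and SNORA61, at chr1:28579764-28579893 on the minus strand inside SNHG12, are shown as the 2 with the smallest p among those lower in siNELFA+siYAP. Capitals in SNORD27 are as above, and in SNORA61 they mark the ACA near the end, a feature that 39 of 146 located members (26.7%) hold.
SNORD27: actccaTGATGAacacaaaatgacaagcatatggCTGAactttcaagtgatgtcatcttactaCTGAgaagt
SNORA61: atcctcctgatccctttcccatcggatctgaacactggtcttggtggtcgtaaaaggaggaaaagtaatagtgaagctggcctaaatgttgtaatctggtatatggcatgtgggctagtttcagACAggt

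siNELFA compared to siControl addresses the loss of NELFA alone. Of the stand-alone Pol II genes, 20 of 23 records had a positive log2 fold change, with a median of 0.22, against 0.00 over all 17727 tested genes. Without the records under 20 counts in siControl, 16 of 19 were higher, with a median of 0.21. The siNELFA and siControl libraries overlapped in all 23 records. Of all tested genes, 6.24% did not overlap and were higher, and 5.94% did not overlap and were lower. In bulk samples a difference in the share of cells that hold an RNA and one in its level per cell cannot be told apart. The whole set of 155 records had a median of 0.07, with 88 higher and 67 lower. By edgeR's quasi-likelihood test with Benjamini-Hochberg adjustment, 0 of 155 records passed an adjusted p of 0.05 (0.00564% of all tested genes did, and DESeq2 also called 0). At a nominal p of 0.05, 4 records were higher and 0 lower, which is 2.58% and 0% of the 155, beside 2.25% and 2.21% of all tested genes. With 1 library left out, members at this p numbered 2 (without siControl replicate 2) to 10 (without siControl replicate 3 or siNELFA replicate 1). When the replicate block was added, 9 records at 6 loci were called, and all were higher. These are 5.81% of the 155 records and 4.08% of the 147 loci, beside 2.76% of all tested genes called higher in that fit.

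The U3 gene SNORD3B-2 had the largest fold change of the members in siNELFA. In the order of replicates 1 to 3, it was at 1.08, 8.42 and 11.5 CPM with siControl, 9.96, 67.8 and 79.7 with siNELFA, 1.25, 7.35 and 10.3 with siYAP, and 60.0, 64.6 and 63.1 with siNELFA+siYAP. The 3 siNELFA+siYAP libraries stood above all siControl and siYAP libraries, while siNELFA replicate 1 lay below siControl replicate 3, so that siNELFA and siControl overlapped. The log2 fold change in siNELFA was 2.88 ± 0.92 (SE, n = 3 libraries per group, edgeR adjusted p = 1). With the replicate block SNORD3B-2 rose by 2.94 ± 0.16, or 7.68-fold (edgeR adjusted p = 1.48e-06).

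The U3 record inside TEX14 was also highest in the siNELFA+siYAP libraries. Its values were 0.217, 0.495 and 1.24 CPM with siControl, 1.10, 3.69 and 4.49 with siNELFA, 0.192, 0.571 and 1.79 with siYAP, and 5.13, 6.30 and 4.95 with siNELFA+siYAP. It too had the lowest value of each of the other 3 groups in replicate 1, and only the siNELFA+siYAP libraries were clear of siControl. The log2 fold change in siNELFA was 2.17 ± 0.72 (edgeR adjusted p = 1), and with the replicate block it was 2.30 ± 0.43 (edgeR adjusted p = 0.0104). With a mean of 11.7 counts in siControl, this record reached the limit of 20 through the groups where it is high, so that its difference is in part set by how members were chosen. TEX14 itself, a gene of germ cell division, ranged from 0.569 to 3.75 CPM, and the log2 fold change of its exon counts was 1.44 with siNELFA, 1.35 with siYAP and 1.73 with siNELFA+siYAP, none past the adjusted threshold.

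RNVU1-14, the U1 variant printed above, was at 0.65, 1.43 and 3.47 CPM with siControl, 1.10, 6.98 and 9.10 with siNELFA, 0.481, 2.78 and 2.28 with siYAP, and 5.22, 5.65 and 5.86 with siNELFA+siYAP. It rose in siNELFA only with the replicate block, by 1.65 ± 0.33 on the log2 scale (edgeR adjusted p = 0.0133), beside 1.6 ± 0.82 without it. SNORD3D stood at 0.867, 2.20 and 4.81 CPM with siControl, 2.04, 5.88 and 8.08 with siNELFA, 1.06, 2.35 and 2.10 with siYAP, and 6.87, 6.08 and 6.51 with siNELFA+siYAP. Its blocked log2 fold change in siNELFA was 1.09 ± 0.28 (edgeR adjusted p = 0.0438), and that without the block 1.00 ± 0.68. In both genes, every siNELFA library was above the siControl library of the same number. With 1 library left out, the log2 fold change in siNELFA ran from 1.10 to 2.42 for RNVU1-14 and from 0.57 to 1.77 for SNORD3D, lowest without siNELFA replicate 3 and highest without siControl replicate 3. RNU11, the U11 snRNA that recognizes the 5′ splice site of minor introns, had a log2 fold change of 1.22 ± 0.71, and RNU1-1 one of 1.28 ± 0.61. The U1 variants RNVU1-15 and RNVU1-27 had 1.07 and 0.97, and none of these genes was called in either fit. By TPM, RNU11 stood at 0.103 or less in every library.

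**Figure D1:**
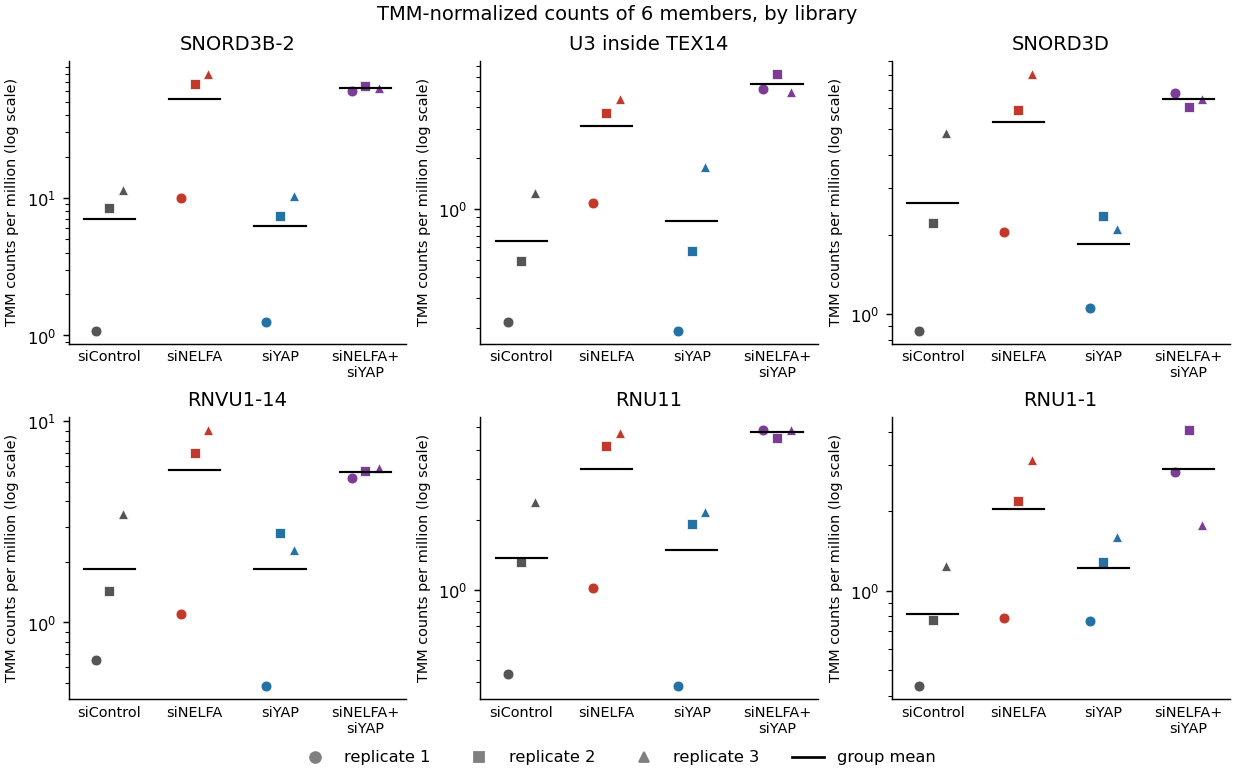
TMM-normalized CPM (log axis) of 6 members grouped with the stand-alone Pol II genes, in each of the 12 libraries. Symbols give the replicate number and lines the group mean. The U3 record inside TEX14 lies in an intron and was grouped by its symbol. Replicate 1 is the lowest library of siControl, siNELFA and siYAP in all 6 panels, and the siNELFA+siYAP libraries lie above all siControl libraries in all 6. The U3 record inside TEX14 and RNU1-1 averaged under 20 counts in siControl and are members through the other groups.

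Of the Pol III genes, RPPH1 and RN7SL1 were called in siNELFA with the replicate block. RPPH1, the catalytic RNA of RNase P that trims tRNA precursors, was at 2213, 2629 and 2949 CPM with siControl, 4218, 3274 and 3653 with siNELFA, 2507, 3050 and 3035 with siYAP, and 3743, 3850 and 3612 with siNELFA+siYAP. All siNELFA libraries were above all siControl libraries. The log2 fold change was 0.52 ± 0.17 without the block (edgeR adjusted p = 1) and 0.52 ± 0.11 with it (edgeR adjusted p = 0.0192). RN7SL1, the 7SL RNA of the signal recognition particle, was at 3467, 6595 and 7084 CPM with siControl and 8477, 7093 and 9385 with siNELFA, and its log2 fold change was 0.55 ± 0.28 without the block and 0.60 ± 0.16 with it (edgeR adjusted p = 0.0494). Its siControl replicate 1 library was the lowest of all 12.

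The other abundant Pol III RNAs had smaller differences, none past the adjusted threshold. 7SK was at 11009 ± 364 CPM (SD, n = 3) with siControl, 12079 ± 1174 with siNELFA, 11893 ± 623 with siYAP and 11763 ± 106 with siNELFA+siYAP. Its log2 fold changes were 0.14 ± 0.14, 0.11 ± 0.13 and 0.08 ± 0.08 for siNELFA, siYAP and siNELFA+siYAP against siControl (edgeR adjusted p = 1, 1 and 0.619), and its siNELFA+siYAP libraries were all above its siControl libraries. RMRP, the RNA of RNase MRP, was at 888 ± 277, 981 ± 40.7, 902 ± 234 and 984 ± 36.3 CPM in the same order of groups. RN7SL2 was uneven within groups, with 10737 CPM in siControl replicate 2 against 3545 and 5465 in the rest of the group. In siNELFA+siYAP replicate 2 it had 14038 CPM, against 5803 and 5978. Its TPM was the lowest of the group in both libraries, at 55830 against 63123 and 96543, and 64069 against 99854 or more. The 7SL copy RN7SL4P was at 2878 and 2936 TPM in these 2 libraries and at 21009 or more in all others. How reads were split between 7SL copies was not tested. Per kilobase of exon, 7SK in siControl stood at 33260 CPM, RN7SL2 at 21941, RN7SL1 at 19115 and RPPH1 at 7798, taken over the 333 bases of its ribozyme record. The 2 RN7SL genes differ by less than their spread over libraries.

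siYAP compared to siControl addresses the loss of YAP1 alone. Of the stand-alone Pol II genes, 5 of 22 tested records were higher, with a median log2 fold change of -0.48. This rested on replicate 1, since without it in both groups 11 of 23 were higher and the median was -0.022. The summed level of these genes had a log2 ratio of -0.15 to siControl, which became 0.092 without siYAP replicate 1. The 154 records tested had a median of -0.18, with 54 higher and 100 lower, beside a median of 0.00 over all 17296 genes. The U3 record inside TEX14 had too few counts for this comparison. By edgeR 0 of 154 records passed the adjusted threshold (0.00578% of all tested genes did, and DESeq2 also called 0). At a nominal p of 0.05, 0 records were higher and 1 lower, beside 0.752% and 0.549% of all tested genes. The median moved to -0.03 without replicate 1 of both groups, and to -0.026 without siControl replicate 3.

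The 1 record lower at a nominal p was SNORA73B, a box H/ACA snoRNA in an intron of SNHG3 with a role in ribosomal RNA processing. It was at 20.6, 16.8 and 19.98 CPM with siControl, 7.50, 14.98 and 12.5 with siYAP and between 19.7 and 23.6 in the 6 other libraries. The log2 fold change in siYAP was -0.72 ± 0.29 (edgeR adjusted p = 1). The siYAP libraries were all below the siControl libraries. Between siYAP and siControl, 12 of the 154 records did not overlap and were lower and 2 were higher, or 7.79% and 1.3%, beside 3.64% and 4.12% of all tested genes. Among the lower ones, the U1 variant RNVU1-31 and the U3 gene SNORD3C had log2 fold changes of -0.53 and -0.97. SNHG3, the host of SNORA73B, had a log2 fold change of -0.32 (edgeR adjusted p = 1).

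siNELFA+siYAP compared to siControl addresses the loss of both. The siNELFA+siYAP libraries lie outside the replicate pairing of the other groups, so a difference between sets of libraries cannot be told apart from this loss. Of the 155 records, 81 were higher and 74 lower, and the median of 0.05 lay beside -0.03 over all 17533 tested genes. By edgeR 0 records passed the adjusted threshold, beside 0.428% of all tested genes. DESeq2 called 10, and the share of all genes that it called was not counted. At a nominal p of 0.05, 11 records were higher and 10 lower, which is 7.10% and 6.45% of the 155, beside 8.27% and 10.2% of all tested genes. The groups did not overlap for 25 higher and 14 lower records, or 16.1% and 9.03%, beside 15.9% and 13.9%. Over all members, these shares were near or below those of all genes. Of the 11 higher records, 9, at 8 loci, were stand-alone Pol II genes and the others were the 2 records of RPPH1. Among the 9, the U3 record inside TEX14, RNU1-1 and RNVU1-15 averaged under 20 counts in siControl. They are members through the groups where they are high, so their part in this count follows in part from the choice of members. Of the 10 lower ones, 9 were other snoRNAs, which make up 103 of the members, and 1 was the 7SL copy RN7SL648P. The 9 are 8.74% of their kind, beside the 10.2% of all tested genes. The stand-alone Pol II genes had a median of 0.62, with 19 of 23 records higher and 13 not overlapping (0.47 without the 4 records under 20 counts in siControl), and the other snoRNAs and scaRNAs a median of -0.10.

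SNORD3B-2 had a log2 fold change of 3.10 ± 0.60 in siNELFA+siYAP (edgeR adjusted p = 0.0756) and the U3 record inside TEX14 one of 2.94 ± 0.50 (edgeR adjusted p = 0.0667). The values for RNU1-1, RNU11, RNVU1-15, RNVU1-14, RNVU1-27 and SNORD3D were 1.74, 1.71, 1.67, 1.52, 1.5 and 1.25, each with a nominal p under 0.05 and none past the adjusted threshold. Of these, RNU1-1 and RNVU1-15, like the U3 record inside TEX14, averaged under 20 counts in siControl and are members through the other groups. Their p-values rest in part on how members were chosen. RPPH1 had 0.51 ± 0.12 (edgeR adjusted p = 0.0972). The abundant U2 gene RNU2-2P had 0.14, and the U4 genes RNU4-1 and RNU4-2 had -0.16 and -0.31. RNU2-2P lies in an exon of WDR74, whose log2 fold change was 0.15 here, and against siYAP the 2 had 0.80 and 0.61. U4 escorts U6 into the spliceosome, and U2 pairs with the branch site. RNU12, which takes the place of U2 at minor introns, had 0.47, the U5 gene RNU5E-1 0.62 and SNORD118, the U8 snoRNA of large-subunit ribosomal RNA processing, 1.03. In siNELFA these 3 genes had 0.22, 0.24 and 0.18. Of the 3, SNORD118 also averaged under 20 counts in siControl (13.7) and is a member through the other groups, so its value rests in part on how members were chosen. Without siControl replicate 1 the members called in this comparison went from 0 to 21, and without siControl replicate 3 to 1. The share of all genes called in these fits was not counted.

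siNELFA+siYAP and siYAP, which differ in the siRNA against NELFA, were also compared, a comparison chosen after the values had been seen. The siNELFA+siYAP libraries did not follow the replicate pairing that siYAP shares. A difference between these sets of libraries therefore cannot be told apart from the added loss of NELFA. All 23 stand-alone Pol II records had a positive log2 fold change, with a median of 1.2, beside -0.03 over all 17167 tested genes. At a nominal p under 0.05 there were 16 of them, at 15 loci. Without the records under 20 counts in siControl, 19 of 19 were higher, with a median of 1.01. Over the 155 members the median was 0.18, with 25 higher and 8 lower at a nominal p of 0.05, or 16.1% and 5.16%, beside 6.66% and 8.85% of all tested genes. By edgeR 0 members passed the adjusted threshold, beside 0.035% of all tested genes, while DESeq2 called 12 and leaving out siYAP replicate 1 gave 20. For these 12 and 20, the share of all genes called was not counted. SNORD3B-2 had a log2 fold change of 3.27 ± 0.55 (edgeR adjusted p = 0.118), SNORD3D 1.79 ± 0.33 (edgeR adjusted p = 0.127) and RNU4-1 0.85 ± 0.17 (edgeR adjusted p = 0.131). In RNU4-1 the siYAP libraries stood at 7.50, 7.56 and 7.64 CPM and the siNELFA+siYAP libraries at 14.2, 14.2 and 12.8. Its siControl libraries were uneven, at 28.1, 7.54 and 10.5.

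**Figure D2:**
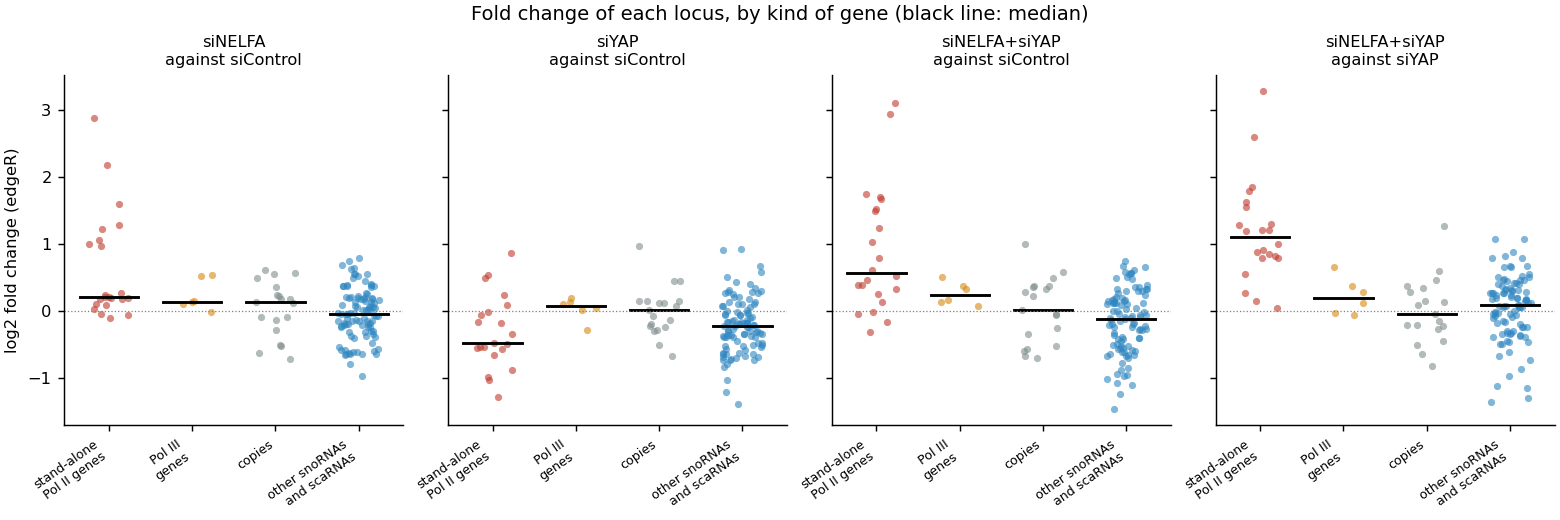
log2 fold change by edgeR (vertical axis) of each member locus, 1 point per locus, by kind of gene, in the 4 comparisons, with the median as a black line. The stand-alone Pol II genes reach 2.88 with siNELFA and 3.10 in siNELFA+siYAP against siControl, while the other snoRNAs and scaRNAs stay between -1.46 and 1.08 in every panel.

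The comparisons siNELFA with siControl and siNELFA+siYAP with siYAP share no library. Of the 22 stand-alone Pol II loci, 19 were higher in both and 0 lower in both, and the fold changes had a Pearson r of 0.88 and a Spearman rho of 0.71 across these loci. Without the 4 records under 20 counts in siControl these were 0.89 and 0.70 across 18 loci. The same measures were 0.22 and 0.24 across the 100 loci of other snoRNAs and scaRNAs and 0.34 and 0.38 across 16804 genes tested in both. These are descriptions, since the loci share libraries and, in part, sequence. The second comparison also sets libraries outside the replicate pairing against libraries within it. SNORD3B-2 and the U3 record inside TEX14 had the largest values in both.

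**Figure D3:**
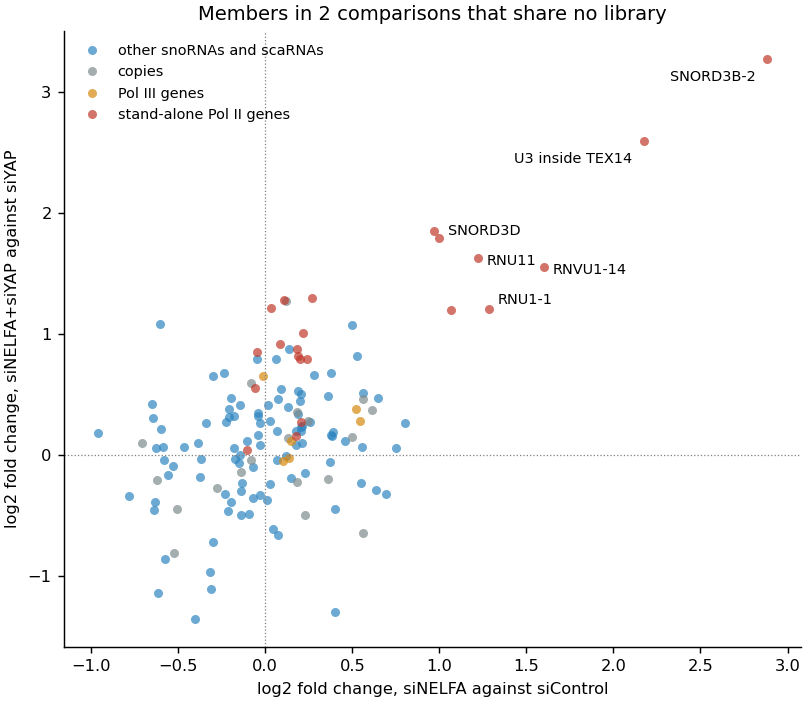
log2 fold change of each member locus in siNELFA against siControl (horizontal axis) and in siNELFA+siYAP against siYAP (vertical axis), coloured by kind of gene. SNORD3B-2 lies at 2.88 and 3.27, and 19 of the 22 stand-alone Pol II loci lie above 0 on both axes.

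Several of these genes have near-identical copies, and counts and TPM treat them differently. The U1 genes RNU1-1, RNU1-2, RNU1-3, RNU1-4, RNVU1-29, RNU1-27P, RNU1-28P and RNVU1-18 have the same 164 bases and RNVU1-7 differs from them by 1 edit. Their deposited TPM values, which were estimated by another method than the counts, were nearly equal, at 1235 to 1249 on average over the 12 libraries. Their mean counts ran from 0.167 to 26.8, and only RNU1-1 reached the limit of 20. How the counting step treated reads that fit several copies is not given in the sources used here. The counts of the 9 records summed to 9, 32 and 74 with siControl, 22, 66 and 100 with siNELFA, 16, 33 and 54 with siYAP, and 85, 107 and 71 with siNELFA+siYAP, and their summed TPM to 13155 ± 6217, 12674 ± 3448, 8121 ± 1209 and 10746 ± 947. The log2 ratio of the TPM means was -0.29 for siNELFA+siYAP to siControl, but siControl replicate 1 held 20304 TPM, while the other siControl libraries, at 10150 and 9011, were not clear of the siNELFA+siYAP libraries at 10524, 11784 and 9929.

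U3 showed the same split between the 2 kinds of value. The counts of the 5 cluster records SNORD3A, SNORD3B-1, SNORD3B-2, SNORD3C and SNORD3D summed to 92, 427 and 650 with siControl, 305, 1532 and 1843 with siNELFA, 94, 260 and 366 with siYAP, and 1019, 1211 and 1647 with siNELFA+siYAP. Their TPM summed to 12720 ± 1348 with siControl, 11222 ± 1397 with siNELFA, 8700 ± 2644 with siYAP and 12217 ± 969 with siNELFA+siYAP. For SNORD3B-2 alone, the mean TPM was 1336 ± 268 with siControl and 1276 ± 185 with siNELFA, while its counts differed 7.38-fold in the fit. By limma on log2(TPM + 1) the difference was -0.056, opposite in sign to that of the counts.

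Where a copy can be told apart bears on this. Of the 50-base stretches of SNORD3B-2, 0 of 168 within the first 217 bases and 189 of 525 after them occur in no other of the 6 U3 records. Longer stretches and read pairs were not compared. SNORD3B-1, whose record also runs on for 541 bases with 216 such stretches after U3, was at 11, 30 and 50 counts with siControl and 16, 41 and 40 with siNELFA, with a log2 fold change of 0.11. SNORD3A and SNORD3C had 0.18 and 0.27. The U3 record inside TEX14 and RNVU1-14, RNVU1-15 and RNVU1-27 are distinct along their whole length by the same measure. The mean TPM of the U3 record inside TEX14 was 2.05 with siControl, 22.1 with siNELFA, 10.1 with siYAP and 41.1 with siNELFA+siYAP, the same order as its counts. For RNVU1-14 the mean TPM was 6.40, 11.7, 8.64 and 7.59. In siNELFA replicate 2, RNVU1-14 had 121 counts but 7.54e-05 TPM.

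Longer annotated transcripts lie over SNORD3D and RNVU1-14, and their counts less those of the small RNA give the reads outside it. Over the 419 bases outside SNORD3D these were 4, 13 and 60 with siControl, 15, 105 and 146 with siNELFA, 4, 19 and 17 with siYAP, and 74, 90 and 105 with siNELFA+siYAP. Over the 183 bases outside RNVU1-14 they were 2, 5 and 14, then 2, 65 and 65, then 6, 16 and 21, and then 28, 47 and 60, in the same order. At both loci the siNELFA+siYAP libraries were above all siControl and siYAP libraries, as they were for the small RNA itself. Over the 514 bases outside RNU12, the U12 snRNA, no library had more than 19 such reads. SCARNA2 had 2277.6 counts on average and the longer record around it 2277.8, so reads that overlap both records were held by both there. The subtraction takes the same to hold at the other loci.

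**Figure D4:**
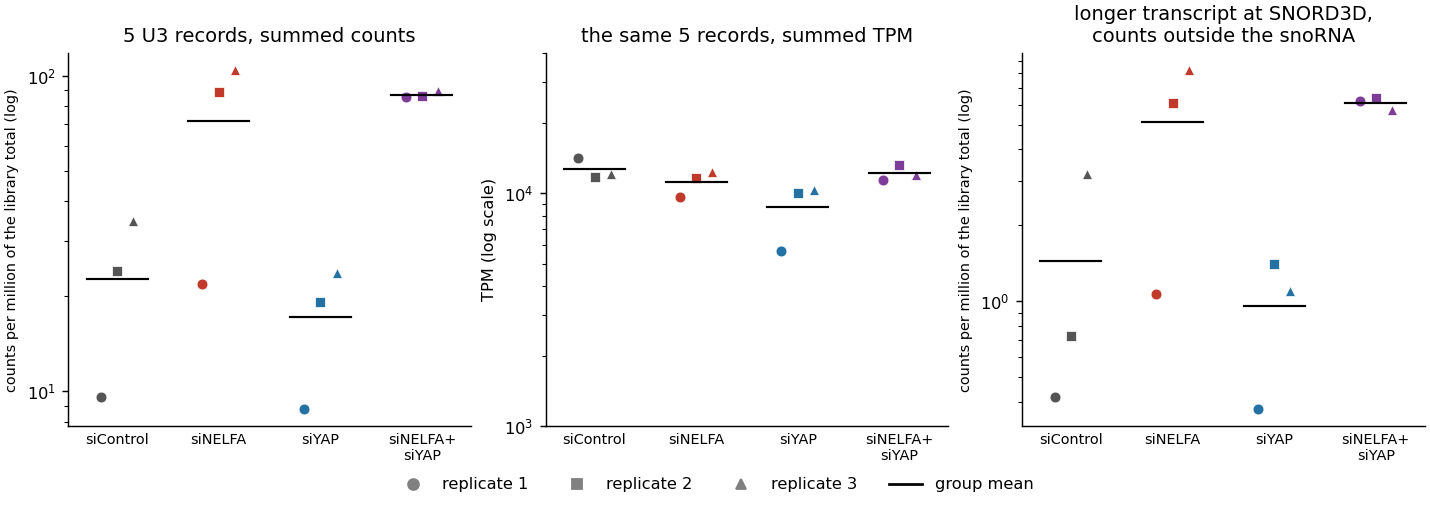
The 5 U3 records of the chromosome 17 cluster by library, as summed counts scaled to CPM of the library total (left) and as summed TPM (middle), and the counts on the longer transcript at SNORD3D outside the snoRNA (right), all on log axes with lines for group means. The summed counts run from 92 in siControl replicate 1 to 1843 in siNELFA replicate 3 before division by the library total, while the group means of the summed TPM lie between 8700 and 12720.

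The other snoRNAs and scaRNAs, which are released from host transcripts, had no record past the adjusted threshold by edgeR in any comparison, while DESeq2 called SNORD27 and SNORA61 in siNELFA+siYAP against siControl, and SNORA73B and SNORD104 against siYAP. Of 103 records, 48 were higher in siNELFA and 55 lower, with a median of -0.04 and 0 at a nominal p of 0.05. In siNELFA+siYAP compared to siControl, 42 were higher and 61 lower, with 0 higher and 9 lower at a nominal p of 0.05, or 8.74%, beside 10.2% of all tested genes. SNORD27, a box C/D snoRNA that guides methylation of 18S ribosomal RNA, was at 3.57, 1.87 and 2.48 CPM with siControl, 2.98, 1.67 and 1.71 with siNELFA, 2.21, 2.00 and 1.97 with siYAP, and 0.745, 1.07 and 1.02 with siNELFA+siYAP. The siNELFA+siYAP libraries were below all others, and the log2 fold change was -1.46 ± 0.38 (edgeR adjusted p = 0.118). SNORA61, a box H/ACA snoRNA, was at 4.87, 3.19 and 4.40 CPM with siControl and 1.66, 1.36 and 2.26 with siNELFA+siYAP, with a log2 fold change of -1.23 ± 0.32 (edgeR adjusted p = 0.118). Both groups were apart from each other for this gene as well. The further ones named here, SNORD104, SNORA24, SNORD1C, SNORA31, SNORD22, SNORA67 and SNORD49B, had log2 fold changes of -1.10, -1.06, -0.96, -0.95, -0.93, -0.88 and -0.35. On the TPM values, SNORD27, SNORA67 and SNORD1C had the opposite sign, and SNORD27 was above 1 TPM in siControl replicate 2 and siNELFA+siYAP replicate 3 alone. The most counted box H/ACA and scaRNA members were SNORA73A, also in SNHG3, at 21.0 ± 1.59 CPM with siControl and 24.5 ± 4.68 with siNELFA+siYAP, and SCARNA2, a guide RNA of the Cajal body with its own gene, placed here with the stand-alone Pol II genes, at 123 ± 57.6 and 178 ± 6.74. SNORD49A did not overlap between siNELFA and siControl, with a log2 fold change of -0.38.

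The hosts were compared with the RNAs inside them. Of the 58 hosts, each counted once, 18 were higher and 40 lower in siNELFA+siYAP, and 0 passed the adjusted threshold by edgeR. Their median there was -0.13 on the log2 scale. In siNELFA 30 were higher and 28 lower, and in siYAP 15 were higher and 43 lower. Across these 101 records, the fold change of the small RNA and that of its host had a Pearson r of 0.60 with siNELFA+siYAP, 0.36 with siNELFA and 0.31 with siYAP, and had the same sign for 74, 70 and 74 of them. SNHG12, the host of SNORA61, had a log2 fold change of -0.82 with siNELFA+siYAP, SNHG1, the host of SNORD27, one of -0.60, and SNHG25, the host of SNORD104, one of -0.99. SNHG16 and TPT1, the hosts of SNORD1C and SNORA31, had 0.14 and -0.03. None of these hosts passed the adjusted threshold. Of the 103 records, 70 lie inside an annotated exon and 5 in part, so their counts cannot be told apart from reads of the host transcript.

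**Figure D5:**
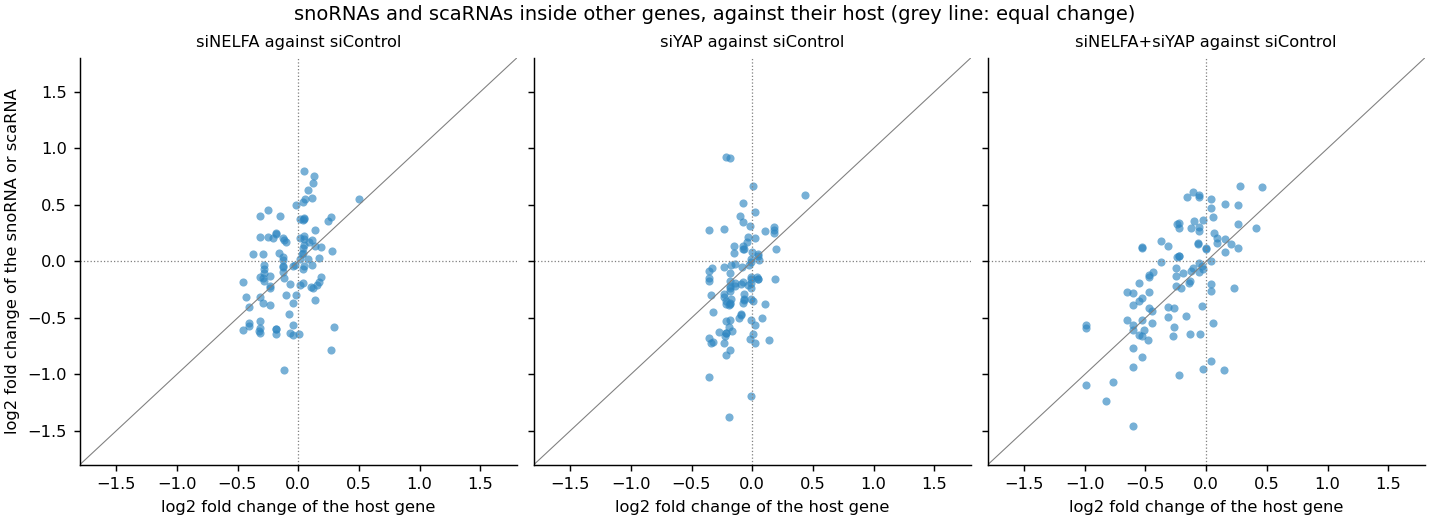
log2 fold change of each snoRNA or scaRNA that lies inside another gene (vertical axis, 101 records) against that of its host gene (horizontal axis) for the 3 comparisons with siControl, with a grey line where both are equal. The points run along the line most clearly in siNELFA+siYAP, where Pearson r is 0.60.

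The members together made up 2.79 ± 0.62% of all counts with siControl, 3.16 ± 0.14% with siNELFA, 2.84 ± 0.34% with siYAP and 3.35 ± 0.39% with siNELFA+siYAP. The 6 Pol III loci held 2.70, 3.06, 2.75 and 3.24% of all counts. The 22 stand-alone Pol II loci made up 0.0299 ± 0.0052%, 0.0381 ± 0.0078%, 0.0269 ± 0.0087% and 0.0449 ± 0.0012%, and the 100 loci of other snoRNAs and scaRNAs 0.0557 ± 0.0047%, 0.0550 ± 0.0016%, 0.0490 ± 0.0095% and 0.0543 ± 0.0007%. For the stand-alone Pol II loci, all 3 siNELFA+siYAP libraries, at 0.0439, 0.0462 and 0.0447%, lay above the highest siControl library, at 0.0358%.

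The proteins that act with these RNAs were counted from lists written from general knowledge. Of the 7 genes of the 7SK particle and P-TEFb, 0 passed the adjusted threshold in any comparison with siControl. LARP7, which protects the end of 7SK, had log2 fold changes of -0.35, -0.27 and -0.58 with siNELFA, siYAP and siNELFA+siYAP (edgeR adjusted p = 1, 1 and 0.239), MEPCE, which caps 7SK, -0.02, 0.26 and 0.22, and HEXIM1, which inhibits P-TEFb within the particle, -0.15, 0.06 and -0.06. Of the 4 NELF genes, NELFA fell by 1.94 ± 0.16 in siNELFA+siYAP (edgeR adjusted p = 0.0199). With the block it was not called there (edgeR adjusted p = 0.151). The siNELFA+siYAP libraries do not follow the replicate pairing, so in this comparison the block matches libraries by number alone. In siNELFA the log2 fold change of NELFA was -1.63 ± 0.21 without the block (edgeR adjusted p = 0.381), and with it NELFA fell by 1.64 ± 0.17 (edgeR adjusted p = 0.000385). Neither of the 2 DSIF genes, none of the 17 Integrator genes and none of the 11 genes of SNAPc and the Pol III factors passed in any of the 3 comparisons. In siNELFA+siYAP the medians of these 3 lists were 0.27, 0.06 and 0.00. The lists of the little elongation complex, Sm and LSm proteins, the SMN complex, box C/D and box H/ACA proteins, SRP proteins and RNase P and MRP proteins also had 0 past the adjusted threshold, with medians of -0.08, -0.02, -0.18, -0.02, -0.10, -0.18 and 0.22. Of the 17 tested snoRNA host genes with no protein product, 15 were lower in siNELFA+siYAP, 8 of them at a nominal p of 0.05, with a median of -0.31, beside 10.2% of all tested genes lower at that p.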

How the data were processed

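The 12 RNA-seq libraries, 3 in each of 4 groups, came from MDA-MB-231 cells. Per the labels and the paper's methods, the authors used STAR against GRCh38 with the annotation of Ensembl release 87, and made the deposited counts, whole reads per gene without normalization, with featureCounts, and the processing notes also name Cufflinks. Versions and the options for multi-mapping and overlapping records are not given in the sources used here. The deposited TPM values were made by the authors per library, and served as an alternative and for levels. A table of FPKM was not used, and 0 other columns per sample were left out.

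Each pair of groups was compared on its 6 libraries with TMM factors and the quasi-likelihood test of edgeR 4.0.16 in R 4.3.3, with no block, over all genes kept by filterByExpr (minimum count 10, total 15, proportion 70%), and p-values were adjusted by Benjamini-Hochberg over all of them. The SE is the size of the log2 fold change divided by the square root of F. Alternatives were DESeq2 1.42.0, limma 3.58.1 on log2(TPM + 1) and log2(TPM + 0.1) for genes averaging 1 TPM, other factors and filters, all 12 libraries in one fit, the replicate block, members averaging 100 counts, records at one locus counted once, and libraries left out. Figures were drawn with matplotlib 3.10.9. The test was tried first on simulated counts.

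The members, the lists and the groups of genes were chosen with earlier results of these data known. Named are RN7SK, RMRP, RPPH1, RN7SL1 and RN7SL2, the member of highest mean count in each class, those past the adjusted threshold, up to 3 of the largest and smallest fold changes per comparison among members averaging 50 counts whose groups do not overlap, the neighbours of the limit, and, from the lists, called genes with LARP7, MEPCE, HEXIM1 and NELFA. The other stand-alone Pol II genes, further copies, hosts and the lower snoRNAs were named after their values were seen. The replicate numbers come from the titles. Deviations of same-numbered libraries from their group means correlated across genes averaging 50 counts by 0.65 to 0.889 between the 3 groups without siNELFA+siYAP, and by -0.0514 to 0.0276 where siNELFA+siYAP was one of the pair, so that they pair those 3 groups only. Positions and sequences are from GENCODE release 44 on GRCh38, where 153 of the 155 records matched by gene ID.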

Additional observations from a re-analysis of the deposited data

How the results depend on the processing

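Counts of members past the adjusted threshold depended on the fit. For fits other than edgeR without and with the replicate block, no share over all genes is given here. Whether those counts exceed the share of all genes is therefore not known. In siNELFA against siControl, 0 by edgeR became 9 with the replicate block, 2 and 2 by limma on log2(TPM + 1) and log2(TPM + 0.1), and 1 without replicate 1 of both groups, while leaving out 1 library gave 0 each time. In siNELFA+siYAP against siControl, 0 became 10 by DESeq2, 2 with no filter on low counts, 1 by each limma fit, 10 without replicate 1, and 0 to 21 with 1 library left out. In siNELFA+siYAP against siYAP, 0 became 12 by DESeq2, 4 with no filter, 11 without replicate 1, and 0 to 20 with 1 library left out. The replicate block called 0 members in siYAP against siControl. It also called 0 in both comparisons with siNELFA+siYAP, whose libraries do not follow the replicate pairing. The median of siYAP against siControl, -0.18, moved to -0.03 without replicate 1 and lay between -0.27 and -0.026 with 1 library left out. The highest counts came without siControl replicate 1 (21) and without siYAP replicate 1 (20), and the median nearest 0 came without siControl replicate 3. Leaving out replicate 1 of both groups, the comparison with siYAP the count by locus, the count without records under 20 counts in siControl and hosts counted once were added after seeing the data.

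The 2 limma fits on TPM turned the sign of 9 values. In siNELFA against siControl these were SNORD3B-2 (-0.056 and -0.056) and RNVU1-15 (-1.40 and -2.49). In siNELFA+siYAP against siControl they were RNU1-1 (-0.20 and -0.20), SNORD27 (0.27 and 0.27), SNORA67 (0.81 and 0.88) and SNORD1C (0.99 and 1.18). In siNELFA+siYAP against siYAP they were RNVU1-14 (-0.45 and -0.82), SNORD3D (-2.07 and -2.10) and SNORD27 (2.11 and 3.21). The SNORD3D record tested averaged 7.53 TPM in siControl, and a second record of the same locus 1069 TPM. Of the members, 11 were listed at 0 TPM in every library. The cause was not tested.

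Of the 155 members, 120 averaged under 100 counts, and the smallest change detectable at this depth was not measured.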
